A study of Homo sapiens with 15 samples.

Results

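The transcripts of 10 immediate early genes, FOS, FOSB, JUN, JUNB, EGR1, EGR2, EGR3, ATF3, IER2 and IER3, were examined in a bulk RNA sequencing time course of cardiac differentiation. The genes were chosen by name and make up 10 of the 60605 genes in the deposited table, and each name matched 1 gene. The cells were H1, a human embryonic stem cell line of wild type genotype. All cultures received CHIR99021, an activator of WNT signalling, on day 0 to induce mesendoderm and then insulin on day 1, and libraries of days 0, 1 and 2 were shared. Cells of the NP-ctrl arm then stayed in their wells with no further inducer. Cells of the NP-IWP2 arm also stayed in place and were given IWP2, an inhibitor of WNT secretion, from day 2 to day 4. Passaged cells were taken off the plate with EDTA on day 2 and replated on Matrigel at lower density with no WNT inhibitor. The paper states that a ROCK inhibitor (Y27632) was added in all differentiation experiments after its survival tests, and it describes this time course later. Its methods describe insulin again around this step in some experiments, and do not name these libraries. Each arm had 1 library on each of days 3, 5, 7 and 10, which gives 15 libraries in all and no second culture of any group.

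Immediate early genes are transcribed within minutes of a stimulus without new protein synthesis. Growth factor signals reach them through ERK and the serum response factor (SRF), and cyclic AMP and stress signals reach them through CREB family factors. Their transcripts are short-lived, and they are widely known for switching on when cells are taken out of a tissue or off a plate. The comparison of passaged with static cells on day 3 therefore asks whether a response to dissociation was left 1 day after replating, and the later libraries show the levels in cells that were never moved.

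Total counts ranged from 13254723 to 20250115 per library. Levels are given as FPKM, the count scaled by exonic length and by the library's total count, so levels of different genes are compared per length. Of the 10 genes, 7 reached 1 FPKM in 1 library or more and entered the tests across 21206 genes. FOSB, EGR2 and EGR3 did not, and are described by their counts. Single libraries were compared on log2(FPKM + 1), and a difference of at least 1 was counted as a change. A ratio of single libraries carries a 95% interval from the Clopper-Pearson method that covers counting error only, and has no test. Because the only repetition is over days, p-values that compare arms measure the spread of an arm difference between days, not between cultures. In bulk RNA, fewer cells that express a gene and less of its RNA per cell cannot be told apart. The labelled cell type was checked against its markers: all 5 pluripotency markers (POU5F1, NANOG, SOX2, LIN28A and DPPA4) were detected on day 0, with a summed FPKM of 1426.65, and the 5 cardiomyocyte markers summed to 3276.07 in passaged cells on day 10. The share of counts from mitochondrial genes was 1.525% in the passaged library of day 3 and 10.307% in that of day 10, the lowest and highest of the 15.

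The promoters of EGR1, FOS and JUN are shown because EGR1 and FOS had their highest levels in the same library, the passaged library of day 5, whereas JUN did not. Each line is the genomic strand of the gene, 5′ to 3′, from -250 to -11 relative to its start site, taken from RefSeq on GRCh38.p14. EGR1 is at chr5:138465229-138465468 on the plus strand, FOS at chr14:75278578-75278817 on the plus strand and JUN at chr1:58784058-58784297 on the minus strand. Capitals mark CArG boxes, the motif of SRF, and TGACG, the core of the cAMP response element, on either strand.
EGR1: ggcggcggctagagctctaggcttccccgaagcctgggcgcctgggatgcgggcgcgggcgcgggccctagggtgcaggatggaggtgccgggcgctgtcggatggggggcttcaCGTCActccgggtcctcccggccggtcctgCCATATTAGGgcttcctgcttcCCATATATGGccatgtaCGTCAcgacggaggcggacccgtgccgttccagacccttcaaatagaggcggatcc
FOS: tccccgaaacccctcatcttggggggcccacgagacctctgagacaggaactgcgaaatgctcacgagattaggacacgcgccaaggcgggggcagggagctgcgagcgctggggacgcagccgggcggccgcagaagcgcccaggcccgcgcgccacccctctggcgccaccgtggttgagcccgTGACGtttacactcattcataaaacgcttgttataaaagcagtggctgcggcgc
JUN: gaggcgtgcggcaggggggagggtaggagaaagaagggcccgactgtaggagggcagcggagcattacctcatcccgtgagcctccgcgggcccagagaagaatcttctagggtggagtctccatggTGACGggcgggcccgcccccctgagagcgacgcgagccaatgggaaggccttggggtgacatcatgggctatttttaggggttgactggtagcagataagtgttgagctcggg
Windows from 250 bases before to 50 after the start site were listed for 8 of the 10 genes, 11 windows in all. CArG boxes were found for 2 genes, in 2 of the 11 windows. EGR1 held 2 of them, at -105 and -83, and 1 of the 3 EGR2 windows held 1 at -71. Bases further upstream were not searched, so the lack of a box for FOS covers its window only. Of all 35116 promoters of the table, 1.29% held a CArG box. The core TGACG was found for 7 of the 8 genes, in 7 of the 11 windows, and in 24.6% of all promoters. ATF3 was the gene without it. None of the 11 windows held the full element TGACGTCA, the AP-1 site TGACTCA or the EGR site GCGTGGGCG on either strand. These were found in 1.85%, 4.95% and 0.795% of all promoters. Only these exact letters were searched, and the JUN line holds tgacatca, 1 base away from TGACGTCA. Each full element would also count as a core.

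FOS (chr14:75278826-75282230) encodes a partner of JUN in the AP-1 transcription factor. Its FPKM was 3.98, 4.89 and 4.63 on days 0, 1 and 2. Libraries of day 3 had 3.94 (NP-ctrl), 3.58 (NP-IWP2) and 2.36 (passaged), and those of day 5 had 9.96, 6.41 and 18.83 in the same order. The passaged library of day 5 was thus the highest of all 15, and both static libraries of day 5 were above every other static library. Later levels in this order were 1.37, 1.9 and 2.43 on day 7, then 3.08, 1.96 and 1.82 on day 10.

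FOSB (chr19:45467995-45475179), which encodes another FOS family member, was low throughout, with 4 to 50 counts per library. The passaged arm held both extremes, with 4 counts on day 3 and 50 on day 5, where NP-ctrl had 26 and NP-IWP2 13. Passaged cells had 38 counts on day 7 and 20 on day 10. The static libraries ranged from 8 to 28 counts, and the 3 shared ones from 8 to 16.

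JUN (chr1:58776845-58784048) encodes the partner of FOS proteins in the AP-1 dimer. Its FPKM was 5.98, 3.67 and 4.07 on days 0, 1 and 2. NP-ctrl had 6.28, 11.97, 13.76 and 18.22 on days 3, 5, 7 and 10. NP-IWP2 had 7.18, 7.30, 18.36 and 11.81 on these days. Passaged cells had 1.82, 8.35, 4.42 and 3.84. The passaged library was below both static libraries on days 3, 7 and 10, and between them on day 5.

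JUNB (chr19:12791486-12793315) encodes a JUN relative that also dimerises with FOS. It had an FPKM of 2.61, 4.50 and 4.56 on days 0 to 2. NP-ctrl then had 3.16, 2.58, 3.46 and 5.32, NP-IWP2 had 2.02, 3.44, 4.39 and 5.59, and passaged cells had 2.96, 2.51, 4.12 and 8.37. The highest library of JUNB was the passaged library of day 10. HOOK2 lies on the opposite strand and shares 259 of the 1830 exonic bases of JUNB. Since strand use in counting was not stated, reads of these genes cannot be told apart there. HOOK2 had up to 1122 counts in a library and JUNB at most 233, and the part of HOOK2 reads in the JUNB levels was not tested.

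EGR1 (chr5:138465479-138469303) encodes a zinc finger transcription factor. Its FPKM was 0.81, 2.56 and 3.56 on days 0, 1 and 2. Day 3 gave 1.45 (NP-ctrl), 2.27 (NP-IWP2) and 2.03 (passaged), and day 5 gave 1.61, 1.26 and 12 in this order. No other library exceeded 4.38, the level of NP-ctrl on day 10, where NP-IWP2 had 2.01 and passaged cells had 1.24. Day 7 gave 2.69, 2.27 and 2.47.

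EGR2 and EGR3 encode factors of the same family and were close to the limit of detection. EGR2 had 14, 18 and 17 counts on days 0, 1 and 2 and at most 3 counts in every later library but the passaged library of day 5, which had 9. The deposited table gives EGR2 a longer span (chr10:62811996-62919900) than GENCODE release 44 does, so its FPKM is on the table's exonic length. EGR3 (chr8:22687659-22693480) reached 15 counts in the passaged library of day 5 and 12 in that of day 10, against 0 to 6 counts in the 8 static libraries. A library with 0 counts allows an FPKM of up to 0.054 for EGR2 in passaged cells on day 3, and up to 0.0421 for EGR3 in NP-IWP2 on day 5 (3 counts, counting error only).

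ATF3 (chr1:212565334-212620777), a stress-induced factor of the CREB family, had an FPKM of 3.76, 3.30 and 2.73 on days 0 to 2. NP-ctrl had 0.99, 3.02, 6.57 and 6.75 on days 3, 5, 7 and 10. NP-IWP2 had 1.16, 1.89, 4.42 and 1.72, and passaged cells had 0.60, 2.14, 2.63 and 1.87. The passaged library of day 3 was the lowest of all 15, and NP-ctrl held the highest levels.

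IER2 (chr19:13150411-13154911), a nuclear protein, had a similar course in the 3 arms. Its FPKM was 48.28, 35.74 and 29.43 on days 0, 1 and 2. NP-ctrl had 24.78, 14.76, 12.40 and 10.25, NP-IWP2 had 30.37, 13.59, 12.98 and 12.37, and passaged cells had 19.13, 17.70, 12.26 and 11.55. The arms lay close together on days 7 and 10.

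IER3 (chr6:30743199-30744548), a regulator of cell survival, had the highest FPKM of the 10 genes on days 0 to 2, at 91.40, 150.29 and 83.80. It was far lower on day 3, with 16.91 (NP-ctrl), 15.92 (NP-IWP2) and 9.10 (passaged). From there the static arms stayed between 11.04 and 16.68, whereas passaged cells had 27.46, 50 and 29.45 on days 5, 7 and 10. IER3-AS1 and HCG20 lie on the opposite strand and had at most 16 and 14 counts in any library.

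**Figure D1:**
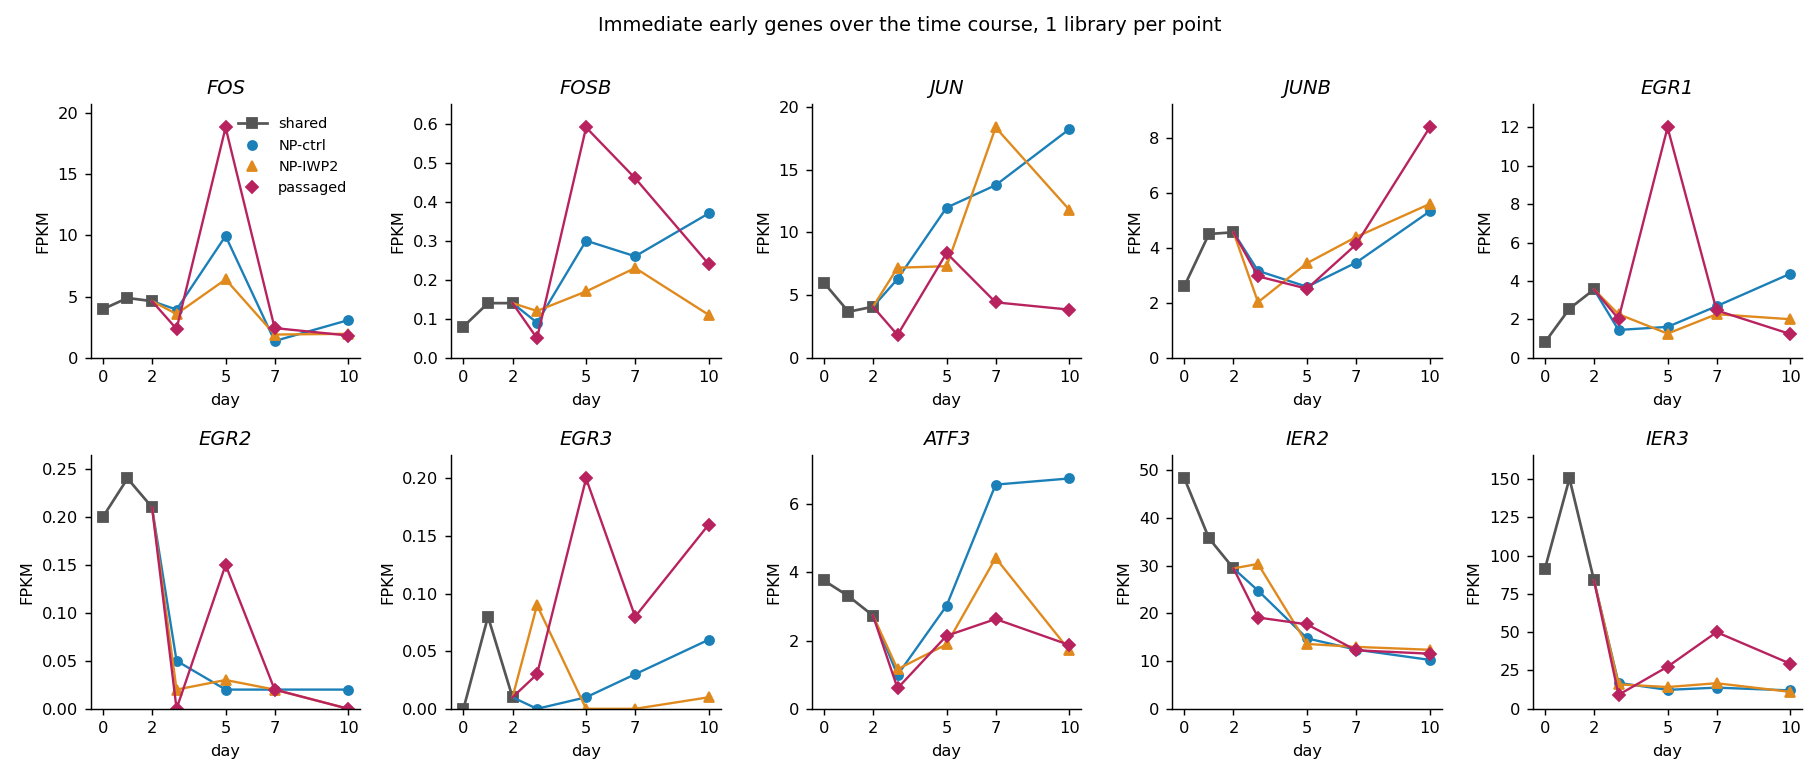
FPKM of each of the 10 genes (vertical axis, linear, from 0) against day, with 1 library per point. Squares are the shared libraries, circles NP-ctrl, triangles NP-IWP2 and diamonds passaged cells, and lines join the days of an arm. FOS, FOSB, EGR1, EGR2 and EGR3 peak in the passaged arm on day 5 among days 3 to 10, and JUN and ATF3 are highest in static libraries.

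On day 3 no gene of the 10 was highest in the passaged library, and several had their lowest level there. Against NP-ctrl the count of changed genes was 1 of 7, JUN, which was 3.46-fold lower (ratio 0.289, interval 0.227 to 0.365). Of all genes tested, 8.49% changed in this pair of libraries. Against NP-IWP2 the changed gene was again JUN, which was 3.95-fold lower (ratio 0.253, interval 0.198 to 0.320), and 8.7% of all genes changed. Both comparisons share the passaged library. FOS was 1.67-fold lower than in NP-ctrl (ratio 0.5998, interval 0.469 to 0.764). IER3 was 1.86-fold lower (ratio 0.538, interval 0.446 to 0.647). IER2 was 1.29-fold lower (ratio 0.772, interval 0.706 to 0.844), and ATF3 1.66-fold lower (ratio 0.603, interval 0.384 to 0.931). The ratios of these genes to NP-IWP2 were also below 1, between 0.517 and 0.660. EGR1 and JUNB lay between the static libraries, and the intervals of EGR1 against NP-ctrl and of JUNB against NP-IWP2 were above 1. EGR1 was 1.397 times NP-ctrl (interval 1.01 to 1.93) and 0.894 times NP-IWP2 (interval 0.661 to 1.21). JUNB was 0.935 times NP-ctrl (interval 0.680 to 1.28) and 1.46 times NP-IWP2 (interval 1.01 to 2.13). FOSB had too few counts to separate the arms, with a ratio to NP-ctrl of 0.594 (interval 0.131 to 2.22). Among the 12 libraries of days 3 to 10, the passaged library of day 3 was the lowest for 4 genes, FOSB, JUN, ATF3 and IER3. Of the 7 genes that passed the filter these are 3, JUN, ATF3 and IER3, where the library was the lowest of the 12 for 11.7% of the genes tested that were above 0 in all of them. This library also had the lowest mitochondrial share of the series, 1.525% where NP-ctrl had 4.804% and NP-IWP2 4.66%, and the part of this in the levels was not tested.

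Against the shared library of day 2, taken before the arms divided, the passaged library of day 3 was lower in ATF3, 4.57-fold, and in IER3, 9.21-fold, so 2 of 7 genes changed where 11.8% of all genes did. The static arms were lower in IER3 as well, by 4.96-fold in NP-ctrl and 5.27-fold in NP-IWP2. IER3 was the 1 changed gene of 7 in each of them, where 8.71% and 8.98% of all genes changed. ATF3 was 2.75-fold lower in NP-ctrl and 2.36-fold lower in NP-IWP2. JUN differed in direction: it was 1.54 times its day 2 level in NP-ctrl (interval 1.32 to 1.80) and 1.76 times in NP-IWP2 (interval 1.51 to 2.06), and 0.446 times in passaged cells (interval 0.348 to 0.566). FOS was 0.510 times its day 2 level in passaged cells, 0.850 times in NP-ctrl and 0.773 times in NP-IWP2. The ratios of EGR1 were 0.570, 0.408 and 0.637 in this order, and those of JUNB were 0.648, 0.693 and 0.444. IER2 had 0.650, 0.842 and 1.03, so its NP-IWP2 level was close to that of day 2. EGR2 had 17 counts on day 2 and then 0, 3 and 1. FOSB had 16 counts on day 2 and then 4, 8 and 9, and EGR3 had 1 and then 2, 0 and 6.

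On day 5 the passaged library was the highest of the 12 for 5 genes, FOS, FOSB, EGR1, EGR2 and EGR3, which are FOS and EGR family members. Of the 7 genes that passed the filter these are 2, FOS and EGR1, where the library was the highest for 7.81% of all genes tested. EGR1 was 7.47 times its level in NP-ctrl (interval 5.90 to 9.57) and 9.51 times that in NP-IWP2 (interval 7.22 to 12.8). FOS was 1.89 times NP-ctrl (interval 1.69 to 2.11) and 2.94 times NP-IWP2 (interval 2.57 to 3.36). FOSB was 1.97 times NP-ctrl (interval 1.21 to 3.30) and 3.56 times NP-IWP2 (interval 1.91 to 7.15). EGR3 had 15 counts where NP-IWP2 had 0. With the floor of 3 counts in place of 0 the ratio was 4.63, which leaves out the counting error of the 15. Its ratio to NP-ctrl rested on 15 counts against 1 (15.4, interval 2.37 to 648). JUN and JUNB, the partners of FOS proteins, were not above both static libraries on day 5. Within the passaged arm, JUN was nonetheless highest on that day, at 8.35 FPKM. JUN was 0.697 times NP-ctrl (interval 0.618 to 0.786) and 1.14 times NP-IWP2 (interval 0.996 to 1.32), and JUNB was 0.971 times NP-ctrl (interval 0.690 to 1.37). IER3 was 2.23-fold higher than in NP-ctrl (interval 1.92 to 2.59). By the limit of 1 on log2(FPKM + 1), 2 of 7 genes changed against NP-ctrl, EGR1 and IER3, where 8.16% of all genes did. Against NP-IWP2, 2 of 7 changed, FOS and EGR1, where 7.51% of all genes did.

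**Figure D2:**
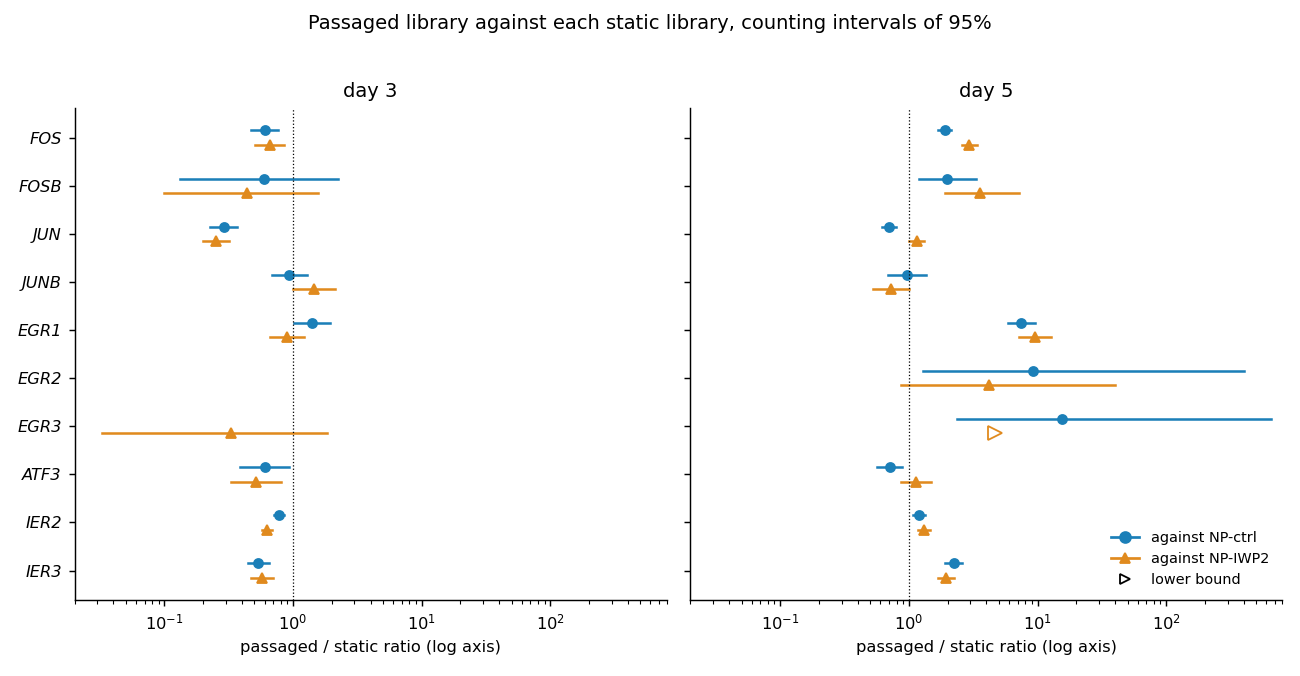
Ratio of the passaged library to the NP-ctrl library (circles) and to the NP-IWP2 library (triangles) on day 3 and day 5, on a log axis, with 95% counting intervals as bars. An open triangle (lower bound in the legend) is a ratio with 0 counts set to the floor of 3, without a counting interval. Pairs in which both libraries had at most 3 counts are left out. JUN, IER3, IER2, ATF3 and FOS lie below 1 on day 3, and EGR1 lies above 5 on day 5.

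A term for the passaged library of day 5, chosen after these levels were seen, was added to the edgeR fit to ask whether the passaged effect on day 5 differed from that on days 3, 7 and 10. EGR1 had the largest estimate among the 7 genes, 3.33 on the log2 scale (SE 0.62), with an adjusted p of 0.325 from the quasi-likelihood test of edgeR. FOS had 1.28 (SE 0.55, adjusted p 0.764 in edgeR) and JUN 1.61 (SE 0.40, adjusted p 0.519 in edgeR). No gene of the 21206 passed, 0% of them, while 1370 had an unadjusted p under 0.05, DESeq2 called 118 genes and limma 12. EGR1 was the one gene of the 7 called by DESeq2, with an adjusted p of 0.00168. It was also called in edgeR without day 3 (3.50, adjusted p 0.0218), but not without day 7 (adjusted p 0.638) or without day 10 (0.434).

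On day 7 FOS in passaged cells was 1.77 times NP-ctrl (interval 1.28 to 2.47), and EGR1 was 0.916 times NP-ctrl (interval 0.700 to 1.20). JUNB was 1.19 times NP-ctrl (interval 0.889 to 1.60), IER2 0.989 times (interval 0.876 to 1.12) and FOSB 1.77 times (interval 0.994 to 3.25). EGR2 had 1 count in each library of this day, and EGR3 had 2 (NP-ctrl), 0 (NP-IWP2) and 6 (passaged). Against NP-ctrl 3 of 7 genes changed: JUN was 3.12-fold lower, ATF3 2.50-fold lower and IER3 3.62-fold higher, where 12.6% of all genes changed. Against NP-IWP2, JUN was 4.16-fold lower and IER3 3.00-fold higher, so 2 of 7 genes changed where 6.69% of all genes did. On day 10, 4 of 7 genes changed against NP-ctrl, where 17.4% of all genes did. JUN was 4.74-fold lower, EGR1 3.54-fold lower, ATF3 3.61-fold lower and IER3 2.46-fold higher. FOS was 1.70-fold lower (interval of the ratio 0.445 to 0.778), JUNB 1.57-fold higher (interval 1.27 to 1.96) and IER2 1.13 times NP-ctrl (interval 0.990 to 1.28). FOSB had 20 counts where NP-ctrl had 28, EGR3 had 12 where it had 4, and EGR2 had 0 where it had 1. Against NP-IWP2 on that day, JUN was 3.07-fold lower and IER3 2.67-fold higher, 2 of 7 genes where 10.1% of all genes changed. ATF3 did not separate passaged cells from NP-IWP2 on day 10, with a ratio of 1.09 (interval 0.831 to 1.43).

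Over days 3 to 10 with day as a block, JUN was lower in passaged than in NP-ctrl cells (log2 difference -1.44, SE 0.33, adjusted p 0.0324 in edgeR), and it was lower on each of the 4 days. It was the 1 gene of the 7 called, where 4.4% of all genes were called. This call was lost without day 3 (adjusted p 0.0502 in edgeR), without day 7 (0.18) and without day 10 (0.173). ATF3 had a log2 difference of -1.08 (SE 0.31, adjusted p 0.0739 in edgeR) and IER3 of 1.03 (SE 0.39, adjusted p 0.174 in edgeR). Without day 3 both passed, ATF3 at -1.15 (adjusted p 0.0433 in edgeR) and IER3 at 1.54 (adjusted p 0.00196 in edgeR). FOS, JUNB, EGR1 and IER2 had estimates between 0.07 and 0.56 and adjusted p of 0.695 or more. Without day 5 the estimates of FOS (-0.19) and EGR1 (-0.46) changed sign, and so did that of FOS without day 7 (-0.08). Against NP-IWP2 0 of the 7 genes passed in edgeR, where 1.33% of all genes did. JUN had -1.28 (SE 0.33, adjusted p 0.1 in edgeR) and IER3 1.02 (SE 0.39, adjusted p 0.29 in edgeR). In this comparison DESeq2 called JUN (adjusted p 0.00774), and limma called none of the 7 genes. At an unadjusted p under 0.05 in edgeR, JUN and IER3 would count among the 7 genes, where 2726 of all 21206 genes would. IER3 passed in edgeR without day 3, at 1.42 (adjusted p 0.00762), and JUN without day 5, at -1.81 (adjusted p 0.0238). The comparisons with NP-ctrl and with NP-IWP2 share the passaged libraries and are not independent.

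The passaged effect on IER3 on day 3 was compared with that on the later days, and 1 passaged library carries the day 3 side. A term for day 3 in the edgeR fit was -2.37 on the log2 scale for IER3 (SE 0.40, adjusted p 0.0205 in edgeR). Passaged cells were below both static libraries on day 3 and above both on days 5, 7 and 10. IER3 was the 1 gene of 7 called, where 0.929% of all genes were called. The call was lost without day 7 (-2.17, adjusted p 0.108 in edgeR), with NP-ctrl as the static arm alone (adjusted p 0.258) and with NP-IWP2 alone (adjusted p 0.203). FOS had a day 3 term of -1.29 (SE 0.58, adjusted p 0.381 in edgeR) and IER2 of -0.75 (SE 0.28, adjusted p 0.277 in edgeR).

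**Figure D3:**
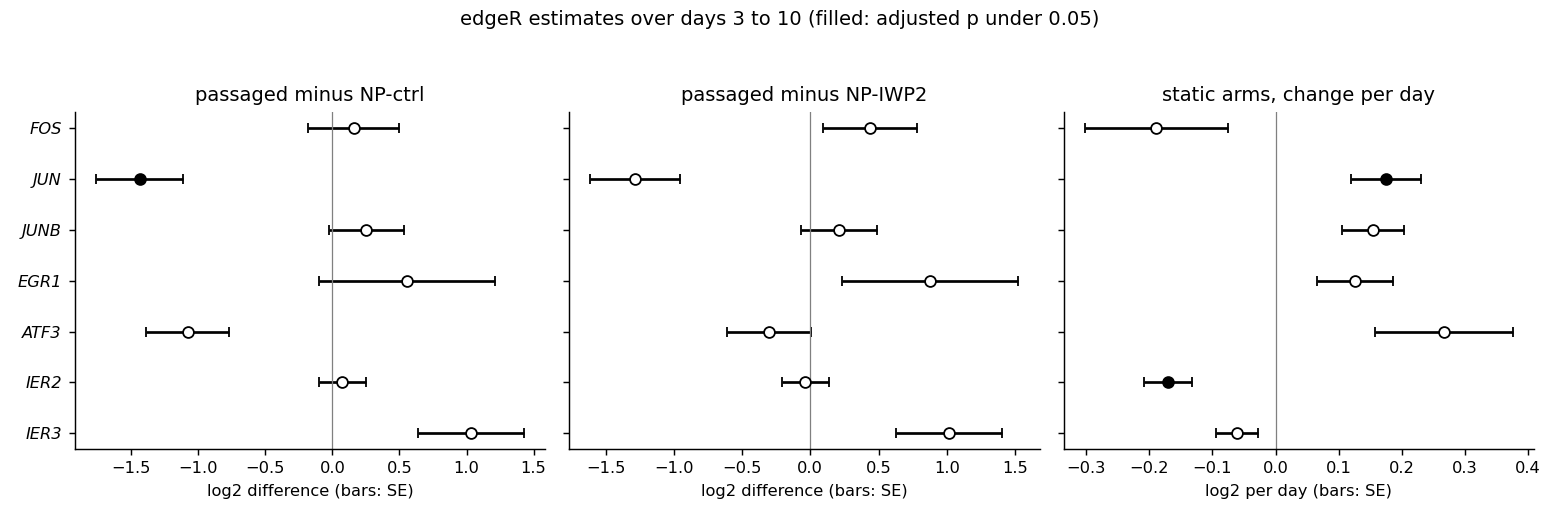
edgeR estimates for the 7 tested genes with their SE as bars: the log2 difference of passaged cells from NP-ctrl and from NP-IWP2 over days 3 to 10, and the log2 change per day in the static arms. Filled points have an adjusted p under 0.05, which are JUN against NP-ctrl and JUN and IER2 in the trend.

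In the static arms, the fitted trend from day 3 to day 10 was upward for JUN and downward for IER2. In NP-IWP2, JUN had 18.36 FPKM on day 7 and 11.81 on day 10. The trend over the 8 static libraries was 0.18 on the log2 scale per day for JUN (SE 0.06, adjusted p 0.049 in edgeR), and -0.17 per day for IER2 (SE 0.04, adjusted p 0.0145 in edgeR). These were 2 of 7 genes, where 24.5% of all genes were called. The fit had no term for single days, so both static libraries of a day entered as separate points, though they share that day. Its p-values measure the spread of libraries around the fitted line, not between cultures, and may be too low for this reason. Neither trend was called without day 3 (adjusted p 0.354 and 0.245 in edgeR). JUN also lost its call without day 5 (adjusted p 0.083) and IER2 without day 7 (adjusted p 0.0545). In limma, with no filter and with a slope per arm, IER2 was called and JUN was not. JUNB had 0.15 per day (SE 0.05, adjusted p 0.052 in edgeR), and passed in DESeq2 (adjusted p 0.0128) and limma (0.0249). ATF3 had 0.27 per day (SE 0.11, adjusted p 0.109 in edgeR). Without day 10 ATF3 passed, at 0.59 per day (adjusted p 0.00714 in edgeR). FOS, EGR1 and IER3 had -0.19, 0.13 and -0.06 per day, with adjusted p of 0.254, 0.161 and 0.219 in edgeR.

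The static arms were also compared with each other. Over days 3 to 10, 0 of 7 genes passed between NP-IWP2 and NP-ctrl in edgeR, and 0 of 7 in DESeq2 and limma, where edgeR called 0.0189% of all genes. The lowest unadjusted p was that of ATF3, the 1 gene of 7 under 0.05, with a log2 difference of -0.78 (SE 0.31, adjusted p 0.973 in edgeR). Of all 21206 genes, 1009 had an unadjusted p under 0.05 in this edgeR comparison. In single libraries 0 of 7 genes changed on days 3, 5 and 7, where 4.15%, 2.97% and 7.26% of all genes did. On day 10, ATF3 was 3.93-fold lower in NP-IWP2 (interval of the ratio 0.204 to 0.316), 1 of 7 genes where 9.35% of all genes changed. On that day EGR1 was 2.18-fold lower in NP-IWP2 (interval of the ratio 0.357 to 0.589).

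The arms also differed in markers of other cell types. The summed FPKM of 6 fibroblast or mesenchyme markers (COL1A1, COL3A1, POSTN, DCN, LUM and PDGFRB) was 60.7 to 4066.19 in NP-ctrl and 32.35 to 1142.74 in NP-IWP2 over days 3 to 10, and 91.53 to 415.29 in passaged cells. That of 4 hepatic endoderm markers (AFP, APOA1, TTR and FOXA2) on day 10 was 3669.79 (NP-ctrl), 1093.07 (NP-IWP2) and 17.8 (passaged, with FOXA2 at or under 3 counts). That of 4 epicardium markers (WT1, TBX18, TCF21 and UPK3B) was 69.0, 76.38 and 0.17 on that day, with WT1, TCF21 and UPK3B at or under 3 counts in passaged cells. That of 4 endothelial markers (PECAM1, CDH5, TEK and EMCN) was 25.97, 19.26 and 2.03. The 5 cardiomyocyte markers summed to 424.14 (NP-ctrl), 1339.47 (NP-IWP2) and 3276.07 (passaged) on day 10. On that day the FPKM of ATF3 was 6.75 (NP-ctrl), 1.72 (NP-IWP2) and 1.87 (passaged), and that of JUN 18.22, 11.81 and 3.84. On day 3 the fibroblast or mesenchyme sum was 60.7 (NP-ctrl), 32.35 (NP-IWP2) and 155.17 (passaged), and the passaged library had the lowest JUN. The sum of 3 primitive streak markers (TBXT, MIXL1 and EOMES) on day 3 was 40.62, 107.99 and 7.76 in this order. That of the 5 pluripotency markers was 323.02, 306.02 and 469.61, so the arms also differed in markers of stage. The part of these cell types and stages in the levels of JUN, ATF3 and the other genes was not tested.

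The ERK feedback genes, 12 genes that ERK signalling induces and many of which restrain it (DUSP, SPRY and SPRED members, ETV4, ETV5 and PHLDA1), were compared next. On day 5, 7 of 12 were higher in the passaged library than in NP-ctrl by at least 1 on log2(FPKM + 1) and none lower, where 8.16% of all genes changed in either direction, and the median difference was 1.14 beside 0 for all genes. The largest differences were those of ETV5 (3.38), SPRY1 (2.90), DUSP5 (1.80) and SPRY4 (1.48). Against NP-IWP2 6 of 12 were higher, with a median of 0.92, where 7.51% of all genes changed in either direction. The FPKM of SPRY1, which encodes a Sprouty inhibitor of growth factor signalling, was 30.56 in passaged cells on day 5, where NP-ctrl had 3.24 and NP-IWP2 2.23. The FPKM of ETV5, an ETS factor, was 16.05, where they had 0.64 and 1.05. On day 3, where 8.49% of all genes changed, 1 of 12 was higher than in NP-ctrl, ETV5 (1.20), with a median of 0.19. On days 7 and 10, where 12.6% and 17.4% of all genes changed, 5 and 2 were higher and 0 and 1 lower (PHLDA1, -1.76). The static NP-IWP2 libraries of days 7 and 10 also had 5 and 2 of the 12 higher than NP-ctrl, where 7.26% and 9.35% of all genes changed. Over days 3 to 10, 2 of 12 passed against NP-ctrl in edgeR, where 4.4% of all genes were called. ETV5 was higher by 3.18 on the log2 scale (SE 0.51, adjusted p 0.0073 in edgeR), and lost its call without day 7 (adjusted p 0.0582). SPRY4 was higher by 1.95 (SE 0.35, adjusted p 0.0115 in edgeR), and lost its call without day 5 (adjusted p 0.0766) and without day 7 (0.0669). Against NP-IWP2 0 of 12 passed, where 1.33% of all genes did, with a median of 0.47 beside 0.02 for all genes.

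Of 29 other immediate early genes, 26 were tested. Between the day 3 libraries of passaged and NP-ctrl cells, 2 of 26 were higher after passaging and 3 lower, where 8.49% of all genes changed, with a median difference of -0.02 beside 0.03 for all genes. NFKBIZ, an atypical member of the IkappaB family, was higher by 1.68, and CCN2, a matricellular growth factor and a known target of YAP, by 1.17. GADD45B had a difference of -1.54, and ZFP36, which promotes decay of short-lived transcripts, had a difference of -1.32. Over days 3 to 10 against NP-ctrl 1 gene of 26 passed upward and 3 downward, where 4.4% of all genes were called. CCN2 was higher by 2.12 (SE 0.35, adjusted p 0.00835 in edgeR). Its FPKM in passaged cells was 19.48, 247.79, 231.21 and 56.5 on days 3, 5, 7 and 10, against 8.11 to 34.5 in NP-ctrl. The call was lost without day 5 (adjusted p 0.0561) and without day 7 (0.101). KLF10, a factor induced by TGF-beta, had -1.58 (SE 0.17, adjusted p 0.000877 in edgeR) and passed with any 1 day left out. FOSL2, a FOS relative, had -2.73 (SE 0.49, adjusted p 0.0118 in edgeR), and IER5 had -1.09 (SE 0.26, adjusted p 0.0371 in edgeR). Both lost their call when day 5, day 7 or day 10 was left out, with adjusted p of 0.0754 to 0.139 for FOSL2 and 0.111 to 0.282 for IER5. Against NP-IWP2, CCN2 (1.97, adjusted p 0.0236 in edgeR) and KLF10 (-1.26, adjusted p 0.00717 in edgeR) passed. CCN2 lost this call without day 5 and without day 7 (adjusted p 0.135 and 0.171), and so did KLF10 (0.0537 and 0.0728). In the day 3 term FOSL2 (2.55, adjusted p 0.0205 in edgeR) and GADD45B (-2.40, adjusted p 0.0334 in edgeR) passed, and both lost the call without day 7 (0.0907 and 0.157).

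**Figure D4:**
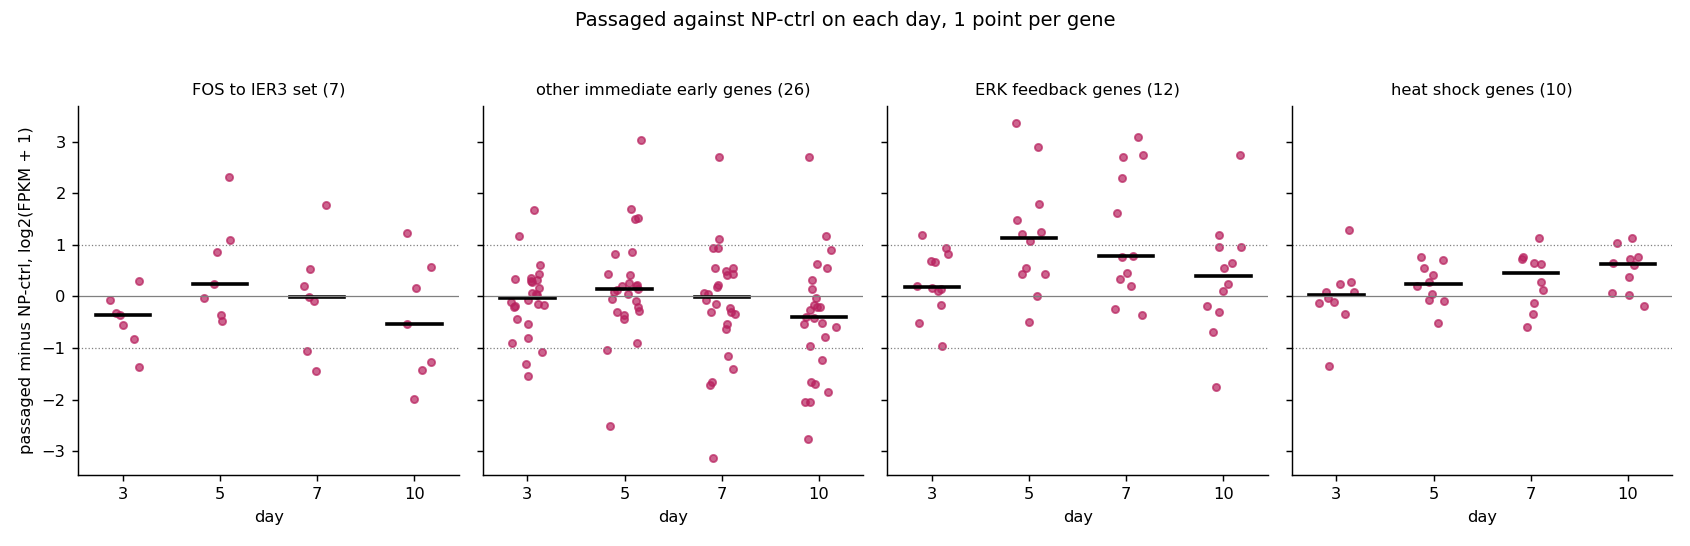
Difference of the passaged from the NP-ctrl library on log2(FPKM + 1) on days 3, 5, 7 and 10, with 1 point per tested gene and bars at the median, for the genes described above (FOS to IER3), other immediate early genes, ERK feedback genes and heat shock genes. Dotted lines mark differences of 1 and -1. The median of the ERK feedback genes is 1.14 on day 5 and 0.19 on day 3.

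Other stress genes were compared with the 8.49% of all genes that changed between the passaged and NP-ctrl libraries on day 3. Of all genes, 4.4% were called over days 3 to 10 against NP-ctrl and 1.33% against NP-IWP2. Of 10 heat shock genes, HSPH1, a co-chaperone of HSP70, was higher in the passaged library than in NP-ctrl by 1.29 and HSPB1 had a difference of -1.34. HSPH1 also passed over days 3 to 10, against NP-ctrl (0.96, adjusted p 0.009 in edgeR) and against NP-IWP2 (0.77, adjusted p 0.0428 in edgeR). It lost the first call without day 5 (adjusted p 0.0584) and without day 7 (0.0792), and the second whichever day was left out (0.073 to 0.182). HSPA1A, the inducible HSP70, had an FPKM of 10.88 in passaged cells on day 3, where NP-ctrl had 14.1 and NP-IWP2 11.71. Of 8 tested ATF4 stress genes, 1 changed on day 3 against NP-ctrl, DDIT4 (-1.29), and 0 passed over days 3 to 10. Of 10 cytoskeletal targets of SRF and its cofactors MRTF, FLNA (1.39) and MYH9 (1.11) were higher on day 3 and CNN1 was lower (-1.46), and 0 passed over days 3 to 10 in edgeR. CNN1 was higher than in NP-ctrl on days 5, 7 and 10, by 1.00, 2.39 and 1.31. Its day 3 term, which rests on 1 passaged library, was -3.255 on the log2 scale. On days 7 and 10, 4 and 1 of the 10 were higher than in NP-ctrl and 1 and 3 lower, where 12.6% and 17.4% of all genes changed. Of 12 upstream regulators, which include SRF, ELK1 and CREB1, 0 passed between arms. Neither did the EGR corepressors NAB1 and NAB2.

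In the static trend, where 24.5% of all genes were called, 4 of the 26 other immediate early genes rose and 6 fell. The lowest adjusted p among those that rose were those of NFKBIZ (0.44 on the log2 scale per day, adjusted p 0.000738 in edgeR) and SGK1 (0.45, adjusted p 0.00467), and the steepest rise was that of KLF2 (0.82, adjusted p 0.00909). Among those that fell they were those of SOCS3 (-0.22, adjusted p 0.00686) and NR4A1 (-0.24, adjusted p 0.00909). With a day left out, 7 to 9 of the 26 were called, where 10.2% to 21.2% of all genes were. Of the heat shock genes 5 of 10 fell, and 0 were called without day 10, 3 without day 3 and 3 without day 7. DUSP4 and DUSP5, 2 of 12, fell among the ERK feedback genes, where 1 gene was called without day 7 or without day 10 and 3 without day 5. NAB1 rose.

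The 7 tested genes did not move as 1 group. Over the 15 libraries the Pearson correlations of their 21 pairs on log2(FPKM + 1) ran from -0.5 to 0.635 with a median of 0.015. Over the 12 libraries of days 3 to 10 they ran from -0.728 to 0.776 with a median of 0.051. These are descriptions of libraries that share cultures and days. Among 11496 genes that reached 5 FPKM in any library, the 5 with the course most like the mean of the 7 genes were EFEMP1, PATJ, LIMA1, MED14 and ARG2, with Pearson correlations of 0.820, 0.802, 0.785, 0.781 and 0.778 over the 15 libraries.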

How the data were processed

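Bulk RNA was sequenced in 15 libraries of H1 cells, 1 per group, and groups were taken from the sample titles. The authors deposited whole-number counts per gene and FPKM values in 1 table. Per the labels, the submitters' processing notes name Cutadapt 1.9.1, HISAT2 2.0.1, HTSeq 0.6.1, DESeq2 and hg38. The labels also name a long-read library kit, whereas these tools are for short reads, and which kind of read was counted was not resolved. Strand use, annotation release and the time from medium change to harvest were not given in the sources used here. The deposited FPKM is the count scaled by exonic length (also deposited) and total count, and was recomputed within 0.005. Of 60605 genes, 60463 matched GENCODE release 44 and 93.765% had the same coordinates. Symbols were blank for 20014 genes, of which 19913 were named by identifier.

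Genes that reached 1 FPKM in any library were kept. Counts were tested with the quasi-likelihood test of edgeR 4.0.16 in R 4.3.3, with TMM normalization, day as a block over the 12 libraries of days 3 to 10 (or day as a number in the 8 static libraries), and Benjamini-Hochberg adjustment over all 21206 genes, at an adjusted p under 0.05. DESeq2 1.42.0 and limma 3.58.1, other size factors, no filter, mitochondrial genes left out, other sets of libraries and each day left out were alternatives. The code was tested on simulated data. Single libraries were compared on log2(FPKM + 1), which understates the change of low genes, with exact 95% intervals and a floor of 3 counts. PCR reads are not independent molecules. The genes and the further lists were chosen with earlier results of these data known. The rule for named genes took all 10 genes in each comparison (where 1 of them is not named, its levels stand in the account of that gene), up to 4 genes per further list with the lowest adjusted p (or the largest difference in single libraries), and the 5 genes most alike in course. SPRY1, HSPA1A and the lists' members given as examples were named beside this rule. The blood markers and the trend of the upstream regulators are not reported here.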

Additional observations from a re-analysis of the deposited data

Results flagged for a closer look

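The effect of passaging on IER3 differed between time points. The edgeR term for day 3 against days 5 to 10 was -2.369 on the log2 scale, with an adjusted p of 0.0205 in edgeR. Passaged cells had less IER3 than either static arm on day 3, and more than either on days 5, 7 and 10. The day 3 side of this difference rests on 1 passaged library, whose mitochondrial share was the lowest of the series. With mitochondrial genes left out of the counts the term was -2.384. This covers only the part of these counts in the scaling, and what else the low share marks in that library was not tested.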

How the results depend on the processing

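No paired analysis was possible because each group has 1 library, so groups share fewer than 2 replicate numbers. Day was the block in place of it. Of 434 alternative values of the 7 genes in edgeR fits, 375 kept direction and call, 20 gained a call, 16 lost it and 23 changed sign, none of the latter called in the main fit. In single libraries 268 of 315 values moved by less than their counting interval. For passaged against NP-ctrl, the number of the 7 genes called was 1, but 2 with DESeq2, 0 with limma, 3 with no filter, 0 with the 2 compared arms alone, 0 with no day block, and 0 to 2 with a day left out. Over all genes these settings called 2150, 163, 2571, 109, 1 and 133 to 2373, against 933. For passaged against NP-IWP2 the number was 0, but 1 with DESeq2, 2 with no filter and 0 to 1 with a day left out, and all-gene calls went from 282 to 886, 1368 and 13 to 675, with 6 in limma, 163 with 2 arms and 2 with no day block. Between static arms the 4 calls over all genes became 61 with DESeq2, 372 with no filter, 277 with 2 arms, 0 in limma, and 0 to 35 with a day left out. For the static trend the number was 2, but 4 with DESeq2, 1 with no filter, 1 with a slope per arm and 0 to 3 with a day left out (2156 to 4493 of all genes, against 5202). The 2 genes called in limma were JUNB and IER2, not JUN. The day 3 term gave 1, but 0 with either static arm alone (3 and 19 of all genes, against 197) and 0 to 1 with a day left out (46 to 547 genes). All-gene calls there were 747 with DESeq2 and 1344 with no filter. The day 5 term gave 0, but 1 with DESeq2 (118 of all genes), 1 with no filter (144) and 0 to 1 with a day left out (0 to 218).

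Changes of sign were these. Against NP-ctrl, IER2 was -0.011 with no day block, and with a day left out FOS ranged from -0.186 to 0.447, EGR1 from -0.458 to 1.292 and IER2 from -0.018 to 0.237. Against NP-IWP2, IER2 ranged from -0.179 to 0.152 and EGR1 from -0.111 to 1.288. Between static arms JUNB ranged from -0.104 to 0.298, IER3 from -0.063 to 0.128, JUN from -0.389 to 0.016 and EGR1 from -0.635 to 0.058. In the day 3 term JUNB was 0.021 and ATF3 0.165 in limma, EGR1 0.026 and ATF3 0.310 with NP-ctrl alone, and JUNB 0.462 with NP-IWP2 alone. With a day left out EGR1 ranged from -1.712 to 0.564 and JUNB from -0.330 to 0.172. In the day 5 term IER3 was -0.015 with no filter and ranged from -0.658 to 0.528 with a day left out. The cause was not tested.

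In single libraries, a limit of log2(1.5) in place of 1 gave 2 and 3 changed genes on day 3 against NP-ctrl and NP-IWP2, 1 and 3 between static arms on days 5 and 10, and 6, 3 and 4 for passaged, NP-ctrl and NP-IWP2 cells on day 3 against day 2, while 9.37% to 28.4% of all genes changed in these pairs. A pseudocount of 0.1 gave 2 between static arms on day 10 and 3 in each static arm on day 3 against day 2, and TPM gave the same 2, 3 and 3, while 22.2% to 23.3% and 18.2% to 19.1% of all genes changed. EGR2 and EGR3 had at most 18 and 15 counts in any library, which limits their ratios.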
